A study of Mus musculus with 2 samples.

Results

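Interleukins and chemokines are the secreted proteins through which cells of the immune system and their neighbours signal to each other, and their receptors sit on the cells that respond. Interleukin receptors are assembled from several chains, of which one usually binds the ligand and another, often shared between receptors, transmits the signal through JAK kinases or, in the IL-1 and IL-17 groups, through other adaptors. Chemokines attract leukocytes by way of receptors that span the membrane repeatedly and couple to inhibitory G proteins. In liver, hepatocytes are known as responders to IL-6 and IL-1, which drive the acute phase response, while Kupffer cells, endothelium, stellate cells and visiting lymphocytes are known sources of the ligands.

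Members were the probe sets that the platform annotation gives to 1 gene with a symbol that begins with Il and a digit, or with Ccl, Cxcl, Ccr, Cxcr, Xcl or Cx3c. The rule found 99 of 12488 probe sets, and they cover 84 of the 8251 genes named on the array. By role these are 43 ligands (24 chemokines and 19 interleukins or interleukin subunits), 38 receptor chains (15 for chemokines and 23 for interleukins) and 3 antagonists of the IL-1 family. The material was mouse liver total RNA of 1 catalogue item from a commercial supplier, hybridised to 2 single-colour oligonucleotide arrays. The samples are titled liver, their source field says spleen, and the group was taken from the titles. The labels name no strain, age, sex or treatment and do not say how many animals gave the RNA. What separates the arrays may then be technical alone. With 1 group there is no test between conditions, and having 2 arrays limits the precision of every value.

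Each value is a probe set signal on a linear scale, and a gene was read from its brightest probe set. How bright a probe set is depends on its sequence, so a signal places a gene within the array and does not rank transcripts by abundance. The yardstick was a list of 115 measured genes of brain, testis, retina or lens, and striated muscle, called tissue-foreign genes here. Their 95th percentile, the higher limit, lay at 645.5 on replicate 1 and 598.4 on replicate 2, and their 90th percentile, the lower limit, at 354 and 363. A gene is said to be above a limit when it was above it on both arrays. A gene that was not above a limit is not thereby absent.

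Markers of several cell types that could hold these genes were read in the same way. Cell types and tissues outside these lists were not read as lists, so the lists do not show that the RNA held no others. Some genes of digestive enzymes made by the exocrine pancreas were bright on both arrays. Examples are Ctrb1 (22100 and 22327, percentile 99.5), Cela1 (4794 and 5091) and Cel (4192 and 3867). Where these signals came from was not tested, and a member signal cannot be placed in liver cells. All 8 hepatocyte markers and 6 of 9 Kupffer cell and macrophage markers were above the higher limit. The same held for 1 of 7 endothelial markers (14.3%) and for 2 of 6 stellate cell and fibroblast markers (33.3%). Of all named genes 23.7% were above the higher limit, so these last 2 short lists do not stand apart from the array. Of the lymphoid markers, 1 of 11 for T and NK cells (Zap70, a T cell kinase) and 0 of 6 for B cells were above it, and 0 of 2 for spleen stroma. None of the 8 granulocyte and mast cell markers and none of the 3 platelet markers were above it. No marker had a signal of 0, but neither had any named gene, so this does not show that a cell type was present. The lowest signals of all named genes were 1.2 on replicate 1 and 0.7 on replicate 2. In total RNA of a whole tissue, fewer cells of a type and less RNA per cell cannot be told apart.

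Most interleukin, chemokine and receptor genes were as dim as genes of foreign tissues. Above the higher limit were 6 of the 84 (7.14%), against 23.7% of all named genes. They were the chemokines Ccl9, Cxcl12 and Cxcl1 and the receptor chains Il6ra, Il15ra and Il27ra. Above the lower limit were 10 of the 84 (11.9%), against 35.7% of all named genes, and the 4 added were the receptor chains Il1r1, Il6st and Il17ra and the antagonist Il18bp. The median percentile of the 84 among all named genes was 20.9, that of the tissue-foreign genes 25.1, and 70 of the 84 lay below percentile 50. These counts turn on where the limit lies. The 5 tissue-foreign genes above the higher limit were Tnp1, Pvalb, Tubb3, Acta1 and Clgn, and all but Acta1 were read from a probe set with a lettered suffix, which marks probes that may be shared or less selective. Without such sets the 95th percentile fell to 306.8 and 323.2, and 11 of the 84 members were above it, against 36.5% of all named genes. Those 11 were the same 10 genes as above the lower limit and the chemokine Cxcl9. The choice of tissue-foreign genes also moves the limit. With each of the 4 tissues left out of the list in turn, the 95th percentile ran from 526.4 to 672 on replicate 1 and from 457.8 to 619.9 on replicate 2, and 5 to 8 members were above it, against 23 to 28.6% of all named genes. Il27ra was not among them without retina and lens or without striated muscle, and Il1r1 and Il6st joined without brain or without testis. At the 99th percentile only Ccl9, Cxcl12 and Il6ra remained, against 16.3% of all named genes.

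**Figure D1:**
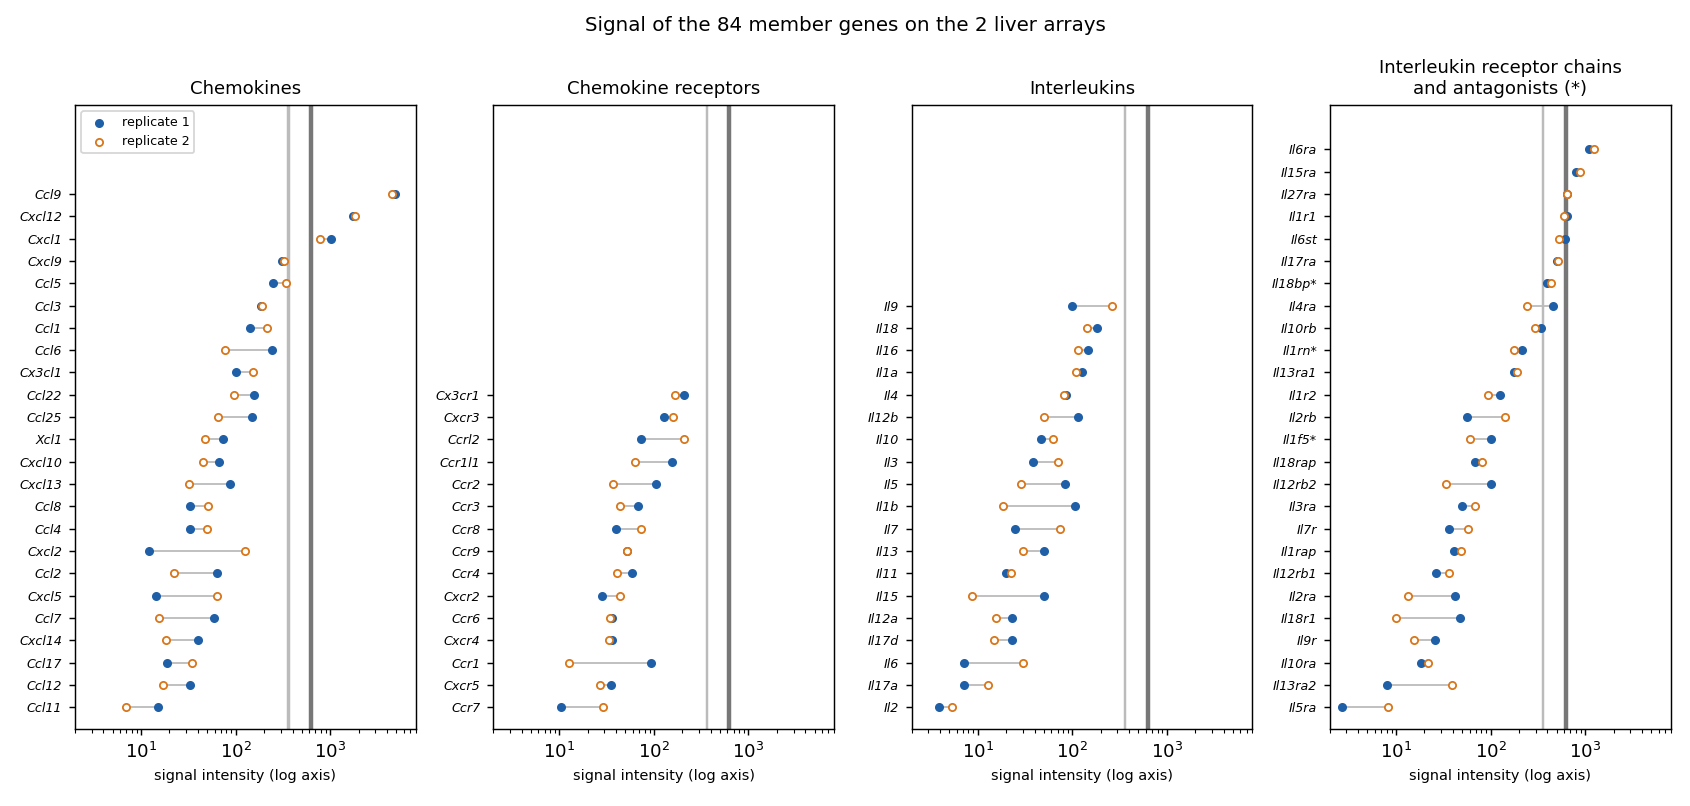
Signal intensity (log axis) of the 84 genes in 4 panels by role, with filled points for replicate 1 and open points for replicate 2. A grey line joins the points of a gene, the dark band spans the higher limit on the 2 arrays and the pale band the lower limit. Among chemokines 3 genes stand right of both bands, chemokine receptors and interleukins have 0 genes right of either band, and the interleukin receptor chains have 6 genes right of the pale band.

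Taken by role, the few chemokine genes above a limit were ligands, and the few interleukin genes above one were receptor chains and an antagonist. Of the 24 chemokines 3 (12.5%) were above either limit, and of their 15 receptors 0. Of the 19 interleukins 0 were above either limit, while of the 23 interleukin receptor chains 3 were above the higher and 6 above the lower limit. Each of these groups lay below the shares of all named genes, 23.7% above the higher and 35.7% above the lower limit. All ligands together gave 3 of 43 above the higher limit (6.98%) and all receptor chains 3 of 38 (7.89%). Their median percentiles, 20.3 for ligands and 21.4 for receptor chains, differed by 1.13 points for the mean of both arrays. That difference was -1.14 on replicate 1 and 1.11 on replicate 2, so its direction was not the same on both arrays. Within interleukins the receptor median exceeded the ligand median by 4.81 points on replicate 1 and 15.2 on replicate 2. Within chemokines the receptor median lay below the ligand median, with a difference of -5.12 on replicate 1 and -5.71 on replicate 2, but of -1.42 for the mean percentile over both arrays, where the interleukin difference was 6.07. Genes are not replicates and probe sets differ in brightness, so no test was made of these differences.

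**Figure D2:**
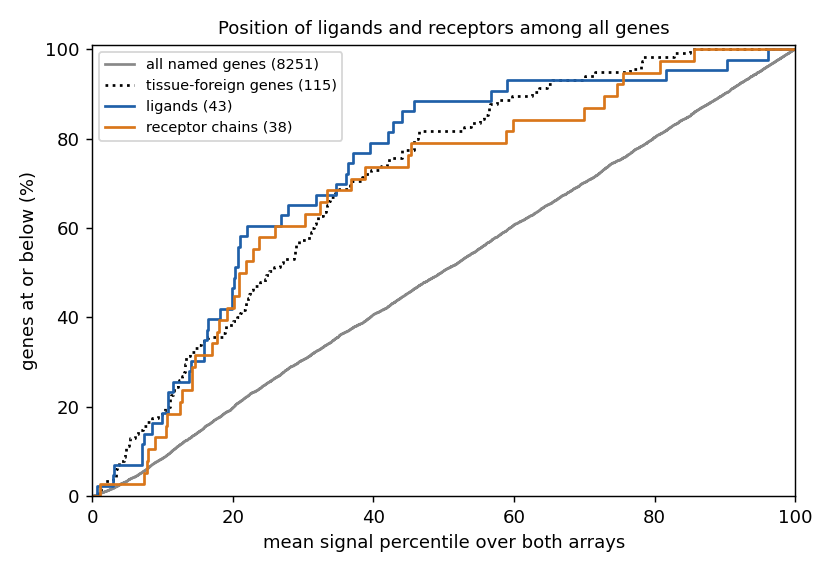
Cumulative share of genes (vertical axis, %) at or below each mean signal percentile over both arrays (horizontal axis) for all named genes, tissue-foreign genes, ligands and receptor chains. The ligand and receptor curves run near that of the tissue-foreign genes and, over most of the axis, well above that of all named genes, with medians of 20.3, 21.4 and 25.1.

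Known ligand and receptor pairs were set side by side, 15 interleukin systems and 11 chemokine systems in which both sides were measured. A ligand was above the lower limit in 0 of the 15 interleukin systems and a receptor chain in 5, those of IL-1, IL-6, IL-11, IL-15 and IL-17. Of these IL-6 and IL-11 share the chain Il6st, the only receptor chain read for IL-11. For IL-1 and for IL-15 only 1 of 2 receptor chains was above it. In the 11 chemokine systems a ligand was above it in 3, those of Ccr1, Cxcr2 and Cxcr4, and a receptor in 0. A system counted when any 1 of its ligands or receptor chains was above the limit, and some systems held several. Of all named genes 35.7% were above the lower limit. The systems were listed after the values were known, so the counts of systems describe the arrays and are no evidence of a rule.

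Ccl9, a CC chemokine of macrophages and other myeloid cells that acts through Ccr1, read 4882 on replicate 1 and 4488 on replicate 2 (4685 ± 278.5, SD, n = 2 arrays). It lay at percentile 96.2, the highest of the 84 genes. The other 13 CC chemokines were not above the lower limit. Closest to it were Ccl5, a T cell and monocyte attractant (250.1 and 340.2), and Ccl3, another ligand of Ccr1 (187.6 and 192). Ccl6, a further ligand of Ccr1, gave 245.6 on replicate 1 and 76.5 on replicate 2, a 3.21-fold difference between the arrays. Ccl2, the main attractant of monocytes, gave 63.9 and 22.4, and the eosinophil attractant Ccl11 was the dimmest chemokine with 15.0 and 6.9.

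Cxcl12, the chemokine that retains blood stem cells and lymphocytes in their niches, read 1731 on replicate 1 and 1832 on replicate 2 (1782 ± 71.7, SD, n = 2 arrays). Another probe set, with 908.9 and 768.2, was also above the higher limit, and the last, of suffix f, gave 574.7 and 531.2 and was above the lower one only. All 3 sets of Cxcl12 were above the lower limit. Its signalling receptor Cxcr4 gave 36.3 and 33.5, and Ackr3, a scavenging receptor that also binds it, gave 13.5 and 8.1. Neither receptor was near a limit.

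Cxcl1, a neutrophil attractant induced in inflammation, read 1014 on replicate 1 and 782.8 on replicate 2 (898.2 ± 163.3, SD, n = 2 arrays). Its other probe set, of suffix g, gave 495 and 487.3, between the limits. The related neutrophil attractants Cxcl2 (12.1 and 127) and Cxcl5 (14.4 and 63.9) were far below the lower limit on both arrays, as was their receptor Cxcr2 (28.6 and 44). The 10.5-fold difference of Cxcl2 between the arrays was the largest among the members and lay wholly within the dim range. Of the chemokines induced by interferon, Cxcl9 gave 311 and 325.4, just below the lower limit, and Cxcl10 gave 67.6 and 44.9. Cxcl13, which draws B cells into follicles of spleen and lymph node, gave 87 and 31.8.

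The upstream sequences of Cxcl1 and Cxcl2 are shown because these neighbouring genes of 1 chemokine group gave signals on opposite sides of the limits, while their promoters share a run of bases. Both stretches are the 110 bases before the annotated start of the gene, 5′ to 3′ on the plus strand, from RefSeq, build GRCm38.p6. Capitals mark the longest run that the 250 bases before the 2 starts have in common, 14 bases, which holds a binding sequence of NF-kappaB, the factor through which IL-1 and bacterial products are known to induce both genes. The stretch of Cxcl1 is chr5:90891135-90891244, with the run beginning 71 bases before the start. That of Cxcl2 is chr5:90903789-90903898, with the run beginning 97 bases before the start.
Cxcl1: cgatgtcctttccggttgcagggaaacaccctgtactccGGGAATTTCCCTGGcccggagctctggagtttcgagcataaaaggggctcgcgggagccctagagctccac
Cxcl2: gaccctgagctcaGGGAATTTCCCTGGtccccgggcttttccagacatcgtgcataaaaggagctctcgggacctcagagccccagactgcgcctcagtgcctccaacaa
On either strand, the 14 bases were found before the start of 2 of the 27025 genes in the promoter table (0.0074%), which are these 2, and 67 of the 84 members had an entry there. The next longest run in common was 10 bases. The run was defined from these 2 genes, so their 2 matches were fixed in advance and the count is no evidence of a shared control. A match of letters is not a shown binding site, and the pair was chosen after the values were known.

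The other chemokines with a probe set of their own, and the chemokine receptors, were dim. A probe set that names 10 genes at once, chemokine genes among them, read 1337 and 1215, above the higher limit, but cannot be given to 1 gene and is not among the members. The 21 chemokines not above the lower limit ranged from 12.1 to 311 on replicate 1 and from 6.9 to 340.2 on replicate 2. Among the receptors, Cx3cr1, the fractalkine receptor of monocytes, was the brightest with 206.9 and 168.2, followed by Cxcr3, the receptor for Cxcl9 and Cxcl10 on T cells (127.2 and 157.8), and the atypical receptor Ccrl2 (72.9 and 206.8). Ccr1, the receptor of Ccl9, gave 94.2 and 12.8, a 7.36-fold difference between the arrays. Ccr2, the monocyte receptor for Ccl2, gave 105.3 and 36.6, and Ccr7, which guides cells to lymph nodes, was the dimmest with 10.4 and 28.8. All 15 chemokine receptors were read from a single probe set each, and all lay below percentile 50.

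Of the interleukin receptors, the chain that binds IL-6 was the brightest, while the chain that transmits it was not above the higher limit. Il6ra, which binds IL-6, read 1099 on replicate 1 and 1255 on replicate 2 (1177 ± 110.4, SD, n = 2 arrays), at percentile 85.7, the highest of the receptor chains. Il6st, the gp130 chain that transmits IL-6 and its relatives, gave 618.5 and 532.5, between the limits, and 295 and 236.5 in its other probe set, below the lower limit. Il27ra, which joins gp130 in the receptor for IL-27, gave 650.7 and 636.2 (643.5 ± 10.3, SD, n = 2 arrays) and passed the higher limit by a small margin. The ligands of this group were dim, with Il6 at 7.2 and 30.1 and Il11 at 20.1 and 22.7. The IL-12 side of the group was dim on both ends, with the receptor chains Il12rb1 (26.5 and 36.5) and Il12rb2 (101.9 and 33.5) and the subunits Il12a (22.9 and 15.8) and Il12b (115.8 and 49.8).

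In the IL-1 family, Il1r1, the signalling receptor for IL-1, gave 647.8 on replicate 1 and 596.3 on replicate 2. It passed the higher limit on replicate 1 alone, and on either array it lay within a few units of it. Il1rap, the accessory chain that Il1r1 needs to signal, gave 41 and 48.6, and the decoy receptor Il1r2 gave 125.3 and 94.4. Both IL-1 ligands were below the lower limit, Il1a with 125.8 and 108.9 and Il1b with 105.8 and 18.5. Of the antagonists, Il18bp, a secreted protein that neutralises IL-18, was above the lower limit with 400.4 and 441 (420.7 ± 28.7, SD, n = 2 arrays). Il1rn, the IL-1 receptor antagonist, gave 216.4 and 179.2, and Il1f5, the antagonist of the IL-36 receptor, 101.3 and 60.6. IL-18 itself gave 180.8 and 144.1, and its receptor chains Il18r1 (47.1 and 9.9) and Il18rap (68.2 and 80.8) were not above the lower limit either.

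Il15ra, the chain that holds IL-15 on the cell surface and presents it to neighbouring lymphocytes, gave 806.4 on replicate 1 and 873.7 on replicate 2 (840.1 ± 47.6, SD, n = 2 arrays). It was the 1 member of 8 receptor chains of the common gamma chain and IL-4 group above either limit. Its ligand Il15 gave 50.7 and 8.7, and Il2rb, the chain that signals for IL-15 and IL-2 in T and NK cells, gave 56.6 and 143.3. Il4ra, which serves IL-4 and IL-13, was above the lower limit on replicate 1 (454.1) and not on replicate 2 (241.9), and its other probe set gave 67.7 and 54. Its partner Il13ra1 gave 178.4 and 188.8. The T cell growth factor Il2 was the dimmest of the 84 genes with 3.9 and 5.3, and Il9 gave 99.8 and 263.7.

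The remaining receptors were mixed. Il17ra, which binds IL-17A, gave 503.6 and 519.9 (511.8 ± 11.5, SD, n = 2 arrays), between the limits, while its other probe set gave 238.6 and 245.1, below the lower one. Its ligand Il17a gave 7.2 and 13. Il10rb, shared by the receptors for IL-10, IL-22 and type III interferons, gave 344.2 and 293.3, just short of the lower limit, whereas the IL-10 binding chain Il10ra gave 18.3 and 21.7. The eosinophil growth factor receptor Il5ra was the dimmest receptor with 2.7 and 8.2. The 17 interleukin receptor chains not above the lower limit ranged from 2.7 to 454.1 on replicate 1 and from 8.2 to 293.3 on replicate 2, and the 19 interleukins from 3.9 to 180.8 and from 5.3 to 263.7.

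Several genes were read from more than 1 probe set, and the choice of set decided some calls. Of the 84 genes 10 had several sets and 74 had 1 (88.1%, against 74.9% of all named genes), so for most members there was no choice of set. Among genes with 1 set, 4 of 74 members (5.41%) and 21.6% of all named genes were above the higher limit. Above the lower limit were 8.11% of members with 1 set and 40% of those with several. For all named genes these shares were 32.6% and 45.0%. The roles differed here, as 100% of chemokine receptors and 94.7% of interleukins had 1 set. The share was 83.3% for chemokines and 78.3% for interleukin receptor chains, so the roles were not read on equal terms. Il4 had 4 sets, of which the brightest gave 85.6 and 81.1. The sets of Cxcl12 and Cxcl1 lay on both sides of the higher limit, and those of Il6st and Il17ra on both sides of the lower one.

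**Figure D3:**
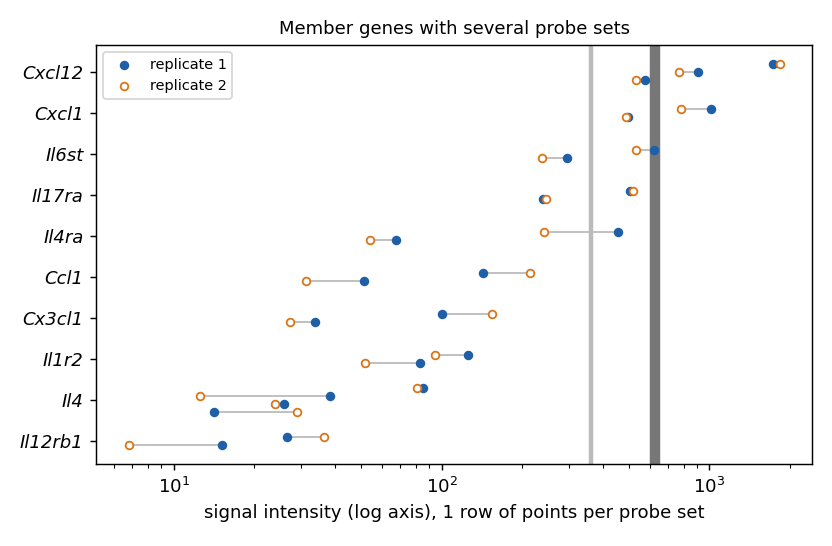
Signal intensity (log axis) of every probe set of the 10 genes with several sets, 1 row of points per set, filled for replicate 1 and open for replicate 2. The dark and pale bands are the higher and lower limits, and the 3 sets of Cxcl12 and both sets of Cxcl1 stand right of the pale band.

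The arrays differed little for the bright members and much for the dim ones. After removal of the median difference of all probe sets, 27 of the 84 genes (32.1%) differed over 2-fold between the arrays. The share was 14.1% for all named genes and 24.3% for the tissue-foreign genes. None of the 10 members above the lower limit differed over 2-fold, beside 3 of 2945 named genes above that limit (0.1%). Being above it on both arrays leaves less room for such a gap. The 27 were all among the 74 others (36.5%), beside 21.9% of all named genes not above that limit. Those 74 were dimmer than these named genes, with median percentiles of 20.2 and 31.6. The SD of the log2 difference was 1.13 over the 84 genes and 0.18 over the 10 above the lower limit, against 0.78 for all named genes and 0.23 for all named genes above that limit. In the brighter 50% of probe sets, Il9 was the 1 of 21 members over 2-fold, against 1.99% of all named genes there. Of the 84 genes 39 were higher and 45 lower on replicate 2. None of the differences has a replicate check.

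**Figure D4:**
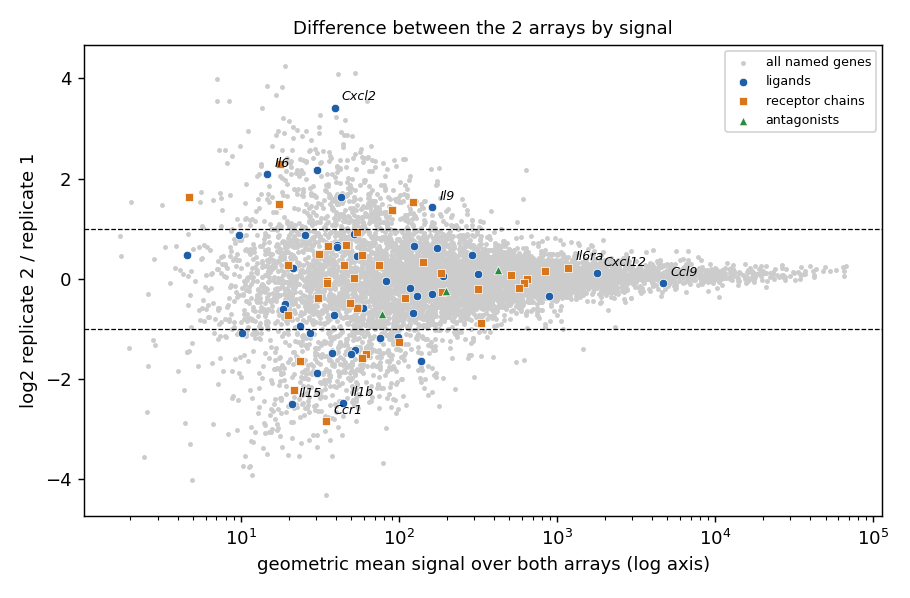
Log2 ratio of replicate 2 to replicate 1 after removal of the median difference (vertical axis) against the geometric mean signal (horizontal log axis), for all named genes, ligands, receptor chains and antagonists. Dashed lines mark 2-fold, beyond which lie 27 members, such as Cxcl2, Ccr1 and Il15, none of them above the lower limit. Ccl9, Cxcl12 and Il6ra lie near 0.

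Genes that serve the same pathways under other names were read from lists. Of 20 measured signalling genes 4 (20%) were above the higher limit and 6 (30%) above the lower, shares near the 23.7% and 35.7% of all named genes. The 4 were Jak1 (969.8 and 728.9), the kinase shared by the gp130 and common gamma chain receptors, Stat3 (1011 and 1244), the factor that carries the IL-6 signal to the nucleus, Stat5a (684 and 799.6) and Gnai2 (4720 and 5206), a G protein subunit used by chemokine receptors. Jak3 (548.7 and 573.5), the partner of the common gamma chain, and Socs2 (570 and 604.7), a feedback inhibitor, were above the lower limit only. Rgs2, which shortens G protein signals, was the dimmest of the list with 19.7 and 10.8. The sets of Gnai2, Stat5a and Jak3 carry lettered suffixes. Of 7 ligands and 19 receptors of related families, 3 of the 26 were above the higher limit (11.5%) and 6 above the lower (23.1%). The 6 were receptors, as are most genes of that list. They were led by Lifr (3280 and 3228), which pairs with gp130 for leukaemia inhibitory factor, and Csf1r (1314 and 829.3), the macrophage growth factor receptor. Tnfrsf1b (649.9 and 603.5), Tnfrsf1a (628.7 and 743.3), Csf3r (625.9 and 790.6) and Ifnar2 (596.4 and 575.5) followed. The cytokines Tnf (39.7 and 21.1) and Ifng (17.5 and 11.3) were dim, as was the interferon gamma receptor chain Ifngr2 (97.1 and 98.9).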

How the data were processed

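The deposited values are signal intensity on a linear scale, 1 per probe set and array, and all columns were used. How they were scaled and summarised, and with what software, is not given in the sources used here; the mean after trimming 2% at each end was 500.5 on both arrays. The medians were 163.2 and 157.7. From the authors' summarised intensity values neither step could be redone, which matters most for dim signals. Of 99 member probe sets, 2 are array controls and were left out of gene values. The annotation gave 1 gene for 10855 probe sets, several for 396 and none for 1237; all 84 member symbols matched a RefSeq table of GRCm38.p6, with 0 changed. The series labels name no genome build, so coordinates are given for promoters alone.

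Of 128 tissue-foreign genes listed, 115 were measured. Limits are their percentiles on each array. Named genes were members above a limit, the 3 brightest and the dimmest of each role, members whose sets straddle a limit and those over 2-fold apart in the brighter 50%; partners of ligand and receptor pairs and other members were named after their values were seen. Members and lists were chosen with earlier results of these data known. No p-value was computed. Steps were tested on simulated data with the same SD for every gene and planted genes set well above the limit. That simulation does not test calls near a limit or the larger spread of dim genes. Alternatives were other limits (90th and 99th percentiles), the mean of a gene's sets, no suffixed sets, quantile normalization, each array alone, log2(value + 32), every set as its own row, and the tissue-foreign list without each tissue in turn (the last 2 added after seeing the data). Python 3.11.15, numpy 2.4.6, pandas 2.3.3 and matplotlib 3.10.9 were used.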

Additional observations from a re-analysis of the deposited data

Results flagged for a closer look

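There were 6 probe sets that named several genes each, at least 1 of them with an interleukin or chemokine symbol. These stood outside the comparisons because their signal cannot be given to 1 gene. The brightest of them, whose annotation lists 10 genes, chemokine genes and pseudogenes among them, read 1337 on replicate 1 and 1215 on replicate 2, above the higher limit on both arrays. The other 5 were not above the lower limit.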

How the results depend on the processing

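The 84 genes were re-read under each alternative. Quantile normalization changed 0 of 84 calls. The count above the limit was 10 at the 90th percentile, 3 at the 99th, 11 with the mean of a gene's sets, 11 without suffixed sets and 12 with every probe set as its own row (97 sets, an alternative chosen after seeing the data), against 6. The shares of all named genes (or sets) above it were 35.7%, 16.3%, 32.3%, 36.5% and 25.6% in that order, against 23.7%. Each array alone gave 6 to 7, beside 24.6% on replicate 1 and 26.1% on replicate 2. For receptors the counts were 6, 1, 6, 6 and 6 under those same settings, against 3, and each array alone gave 3 to 4. Without brain or without testis genes in the tissue-foreign list, also chosen after seeing the data, 5 receptor chains were above the limit. Ligands gave 6 probe sets with every set as its own row, all of the same 3 genes, and 3 genes with each array alone. Cxcl9 joined them with the mean of sets and without suffixed sets. These settings also move the limit, which lay at 297.5 and 321.3 with the mean of sets and at 483.9 and 416.1 with every set as its own row.

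The median percentile of ligands was 23.5 with the mean of sets and ran from 20.1 to 23.6 over the arrays taken alone. That of receptor chains was 25.0 with the mean of sets, 23.1 without suffixed sets and 21.2 to 22.4 over single arrays. The receptor minus ligand difference ran from -1.14 to 1.11 over single arrays, and so changed sign on replicate 1. The SD of the log2 difference between arrays fell from 1.13 to 0.62 with log2(value + 32) and to 0.44 in the brighter 50% of probe sets, where 21 members were left. The cause of these changes was not tested beyond the construction of each alternative. No paired analysis was possible because there is 1 group.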
